A study of Mus musculus with 6 samples.

Results

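The miR-99/100 and miR-125 families were examined in small RNA libraries of mouse oligodendrocyte progenitor cells (OPCs), the precursors of the oligodendrocytes (OLs) that form myelin. The members are the 10 mature arms listed under the names miR-99a, miR-99b, miR-100, miR-125a and miR-125b, chosen by name from a table of 1506 miRNAs. All 10 passed the filter on low values, which required at least 3 libraries at 1 TPM or more, as did 607 of the 1506 miRNAs. The libraries came from primary cortical OPCs of newborn wild-type C57BL/6 pups, 3 given fibrinogen, the plasma protein from which clots form, at 2.5 mg/mL, and 3 untreated as the control. The cultures had been shaken beforehand to remove microglia, but miRNAs of microglia and immune cells were still measured in them. The study asked with this comparison which miRNAs differ in fibrinogen-treated OPCs. How long the cells were treated is not given in the sources used here.

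The miR-125 family is the mammalian relative of lin-4, the miRNA that times development in the nematode Caenorhabditis elegans. Together with let-7, miR-125 is known to repress Lin28, an RNA-binding protein of immature cells, and it is abundant in the brain. The miR-99/100 family is known to repress the growth kinase mTOR and the receptor IGF1R. A miRNA precursor is a hairpin with a 5p and a 3p arm, of which mostly one is kept, and a miRNA finds its targets chiefly by its seed, bases 2 to 8.

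In the mouse these miRNAs are encoded in 3 clusters, each beside a let-7 gene. On the build GRCm38.p6, the cluster of Mir99a, Mirlet7c-1 and Mir125b-2 lies on the plus strand, and its member arms span chr16:77598940-77646339. The cluster of Mir99b, Mirlet7e and Mir125a is far more compact and spans chr17:17830194-17830876 on the plus strand. The cluster of Mir100, Mirlet7a-2 and Mir125b-1 spans chr9:41531437-41582001 on the plus strand. By the GENCODE annotation, all 3 precursors of the chromosome 16 cluster lie in introns of the long non-coding RNA Mir99ahg, and those of the chromosome 9 cluster in introns of the long non-coding RNA Mir100hg. Mir125b-1 also overlaps an exon of the non-coding gene Gm28119. Mir99b and Mirlet7e lie in an intron of the protein-coding gene Spaca6, and Mir125a overlaps an exon of it.

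The mature sequences below are from RefSeq on GRCm38.p6, which held all 10 members. The 5p arms are shown because they define the families, and capitals mark the seed.
miR-99a-5p: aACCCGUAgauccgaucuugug
miR-100-5p: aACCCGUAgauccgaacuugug
miR-99b-5p: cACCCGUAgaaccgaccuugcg
miR-125a-5p: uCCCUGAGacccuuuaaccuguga
miR-125b-5p: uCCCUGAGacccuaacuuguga
miR-351-5p: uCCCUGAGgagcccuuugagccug

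The first 3 share the seed ACCCGUA. miR-99a-5p and miR-100-5p differ by 1 base, U16A counted from 1 at the 5′ end of miR-99a-5p, and miR-99b-5p differs from miR-99a-5p by 4 bases. How many mismatches the counting allowed is not given in the sources used here, so reads of miR-99a-5p and miR-100-5p may have been split imperfectly. The miR-125 5p arms share the seed CCCUGAG and are identical over their first 13 bases. Of the other miRNAs in the table with a RefSeq sequence, miR-351-5p carries this seed. It is no member, and it is encoded on the X chromosome. The single mature sequence of miR-125b-5p is made from 2 precursors, so its reads cannot be told apart by locus. Its read number was odd in 6 of 6 libraries, so it was not listed 2 times for every read. Odd numbers cannot show whether part of its reads was counted for both precursors, so its level may be too high.

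The 3p arms of the precursors below are shown because they can tell the loci apart or share a seed of their own, again with the seed in capitals.
miR-99a-3p: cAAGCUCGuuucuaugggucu
miR-99b-3p: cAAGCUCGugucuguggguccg
miR-125b-1-3p: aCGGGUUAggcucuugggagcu
miR-125b-2-3p: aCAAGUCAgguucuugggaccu

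The libraries held 12120909 to 13624613 miRNA reads in fibrinogen-treated OPCs and 11897645 to 14847034 in untreated OPCs. Values are those the authors called TPM, which are reads scaled to the library total (RPM) with no correction for length, and the members are 21 to 24 bases long. In these bulk cultures a change in the number of cells of a type and a change in miRNA per cell cannot be told apart. Markers of the OL lineage were present at summed levels of 11455 to 14340 TPM in fibrinogen-treated and 12246 to 16651 TPM in untreated OPCs. Of these 5 miRNAs 0 were called, and they did not move alike. Their log2 fold changes ran from -0.16 for miR-338-3p to 0.91 for miR-219a-2-3p (adjusted p = 0.0836, limma). No marker miRNA of the 6 cell types listed was at 0 in every library. Markers of microglia and immune cells summed to 2260 to 2670 TPM in fibrinogen-treated and 2267 to 2916.5 TPM in untreated OPCs. Those of endothelium summed to 10598.5 to 13328 TPM in fibrinogen-treated and 10630 to 14101 TPM in untreated OPCs. The summed markers of 2 further cell classes did not overlap between the groups. The 5 miRNAs of mural and mesenchymal cells, of which 0 of 4 tested were called, summed to 3183 to 4328 TPM in fibrinogen-treated and 2419 to 3022 TPM in untreated OPCs. The 7 neuronal miRNAs, of which 1 was called, summed to 94895 to 100020 TPM in fibrinogen-treated and 118943 to 126278 TPM in untreated OPCs. The neuronal miRNAs did not move alike. The 1 called was the abundant miR-128-3p, with a log2 fold change of -0.49 (adjusted p = 0.041, limma). miR-124-3p was at -0.035 and miR-129-5p at 0.52, and the rest ran from -0.42 for miR-153-3p to -0.20 for miR-124-5p. The part of these 2 cell classes in the values of the miR-99/100 and miR-125 arms was not tested.

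Together the 10 arms took 4.91% ± 0.497 of the reads of a fibrinogen-treated library and 3.75% ± 0.791 of those of an untreated library (SD, n = 3 each). miR-125b-5p alone made up 85.8% ± 1.52 of these reads in fibrinogen-treated and 84.7% ± 2.46 in untreated OPCs. With its reads divided by its 2 precursors, these shares would be 75.2% and 73.6%. By its mean over all libraries, as deposited, miR-125b-5p ranked 8 among all 1506 miRNAs. miR-125a-5p ranked 29 and miR-99a-5p 60, whereas miR-125a-3p, the rarest member, ranked 365. In each group the ranges of neighbours in the order of levels were separate for miR-125b-5p, miR-125a-5p and miR-99a-5p. miR-100-5p and miR-125b-2-3p overlapped in both groups, as did miR-99b-3p and miR-125a-3p, and miR-99b-5p overlapped miR-100-5p in untreated OPCs. Sequences differ in how well they are captured in a library, so an order of levels is one of reads.

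**Figure D1:**
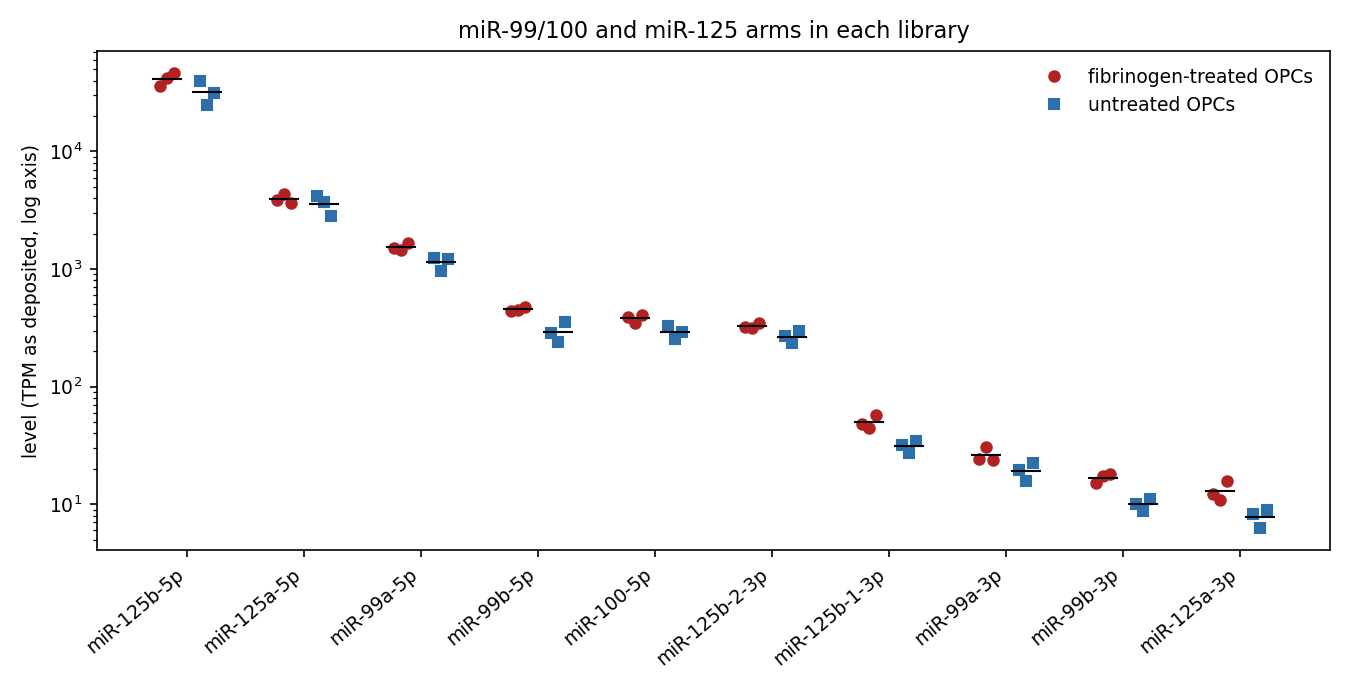
Level of each of the 10 arms in TPM (log axis), with 1 point per library, fibrinogen-treated OPCs to the left of untreated OPCs and a line at each mean. For 8 arms every fibrinogen-treated library lies above every untreated library, and for miR-125b-5p and miR-125a-5p the groups overlap.

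No member passed the test between fibrinogen-treated and untreated OPCs, in either direction, at an adjusted p under 0.05 (limma on log2(TPM + 1), Benjamini-Hochberg adjustment over 607 miRNAs). Among all miRNAs tested, 2.14% were called higher and 0.659% lower. At an unadjusted p under 0.05, 7 of the 10 members were higher and 0 lower, against 20.1% and 5.6% of all miRNAs tested. On recovered reads, edgeR's quasi-likelihood test called 0 members (1.32% of all higher) and had 4 higher at an unadjusted p under 0.05 (11.4% of all), and DESeq2 called 2 higher, miR-99b-5p and miR-125b-1-3p (4.45% of all higher, 6.1% lower). For 8 of the 10 members the lowest fibrinogen-treated library exceeded the highest untreated one, as it did for 24.4% of all miRNAs tested, 26.1% of the known ones and 26.8% of the known ones with a mean of at least 5 TPM. The opposite held for 0 members and 8.73% of all miRNAs. With 3 libraries a group, an exact permutation test can reach p = 0.1 at the lowest.

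The median of the members lay above that of all miRNAs. Their median log2 fold change was 0.44, from 0.16 to 0.70, while the median of all 607 miRNAs, against which the values below can be set, was 0.13. All 10 lay above that median, but 9 did so with a correction for the GC content of precursors, without untreated library 3 or without fibrinogen-treated library 2. Median-of-ratios scaling moved the median of all miRNAs to 0.0031 and that of the members to 0.31. All 10 estimates were above 0 as deposited, against 62.9% of all miRNAs tested, but that of miR-125a-5p was below 0 with edgeR, with DESeq2, with the GC correction and without untreated library 3. Untreated library 2 gave the lowest value of all 6 libraries for 9 of the 10 members and untreated library 3 for the remaining one, and fibrinogen-treated library 3 gave the highest for 8. Without untreated library 2 the median of the members was 0.32.

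**Figure D2:**
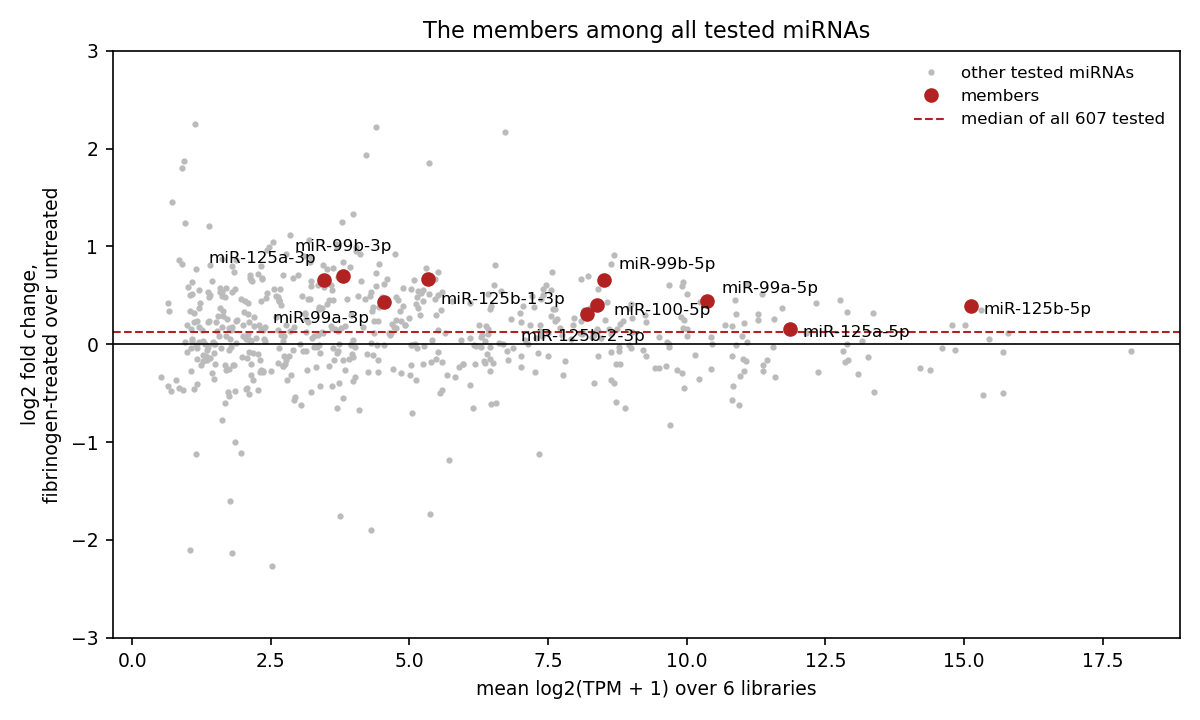
Log2 fold change (fibrinogen-treated over untreated OPCs, from log2(TPM + 1)) against the mean log2(TPM + 1) over 6 libraries for the tested miRNAs, with members in red and the dashed line at the median of all 607, 0.13. The 10 members lie above this line (9 with the GC correction), and 4 of the other miRNAs fall outside the drawn range of -3 to 3.

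Among the 5p arms of the miR-99/100 family, miR-99b-5p had the highest log2 fold change as deposited, but the lowest of the 3 with a correction for GC content. It had 443, 449 and 478 TPM in the fibrinogen-treated libraries, against 285, 238 and 355 TPM in the untreated libraries. The groups did not overlap, and untreated library 3 was the nearest to the treated ones. The log2 fold change was 0.66 (standard error 0.16, 95% interval 0.28 to 1.04), which did not pass (adjusted p = 0.0833, limma). Without untreated library 3 it passed, at 0.81 (adjusted p = 0.0252, limma), a setting in which 6.54% of all miRNAs were called higher and 0.671% lower. It also passed with DESeq2, at 0.50 (adjusted p = 0.0218), and not in 17 of 19 alternatives. The precursor Mir99b had 67.1% GC, against a median of 48.9% over 441 tested known miRNAs, and with that correction the log2 fold change was 0.31 (adjusted p = 0.173, limma), against 0.38 for miR-99a-5p and 0.44 for miR-100-5p.

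miR-99a-5p, the most abundant of this family, had 1509, 1453 and 1654 TPM in the fibrinogen-treated libraries, against 1240, 963 and 1211 TPM in the untreated libraries. Its log2 fold change was 0.44 (standard error 0.13, 95% interval 0.14 to 0.75, adjusted p = 0.114, limma). miR-100-5p, which differs from it by 1 base and is encoded on another chromosome, had 392, 347 and 409 TPM in the fibrinogen-treated libraries, against 325, 256 and 289 TPM in the untreated libraries. Its log2 fold change was 0.40 (standard error 0.14, 95% interval 0.08 to 0.72, adjusted p = 0.148, limma), and it was 0.20 with quantile normalization and 0.24 with edgeR or DESeq2. In both miRNAs every fibrinogen-treated library was above every untreated library, by a narrow margin for miR-100-5p.

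Within the family miR-99a-5p was the most abundant arm in every library. miR-99b-5p lay above miR-100-5p in every fibrinogen-treated library, while their means were level in untreated OPCs. In untreated libraries 1 and 2 miR-99b-5p was the lower, at 285 and 238 TPM against 325 and 256 TPM. In untreated library 3 it was the higher, at 355 against 289 TPM. miR-99a-5p took 64.7% ± 0.36 of the reads of the 3 arms in fibrinogen-treated and 66.1% ± 0.865 in untreated OPCs, miR-99b-5p 19.2% ± 0.628 and 16.9% ± 1.94, and miR-100-5p 16.1% ± 0.638 and 16.9% ± 1.15 (SD, n = 3 each). Summed, these arms had 2378 ± 150 TPM in fibrinogen-treated and 1720 ± 228 TPM in untreated OPCs (SD, n = 3 each).

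The 5p arms of the miR-125 family, the bulk of the reads, overlapped between the groups. miR-125b-5p had 35848, 42134 and 46098 TPM in the fibrinogen-treated libraries, against 39861, 24711 and 31253 TPM in the untreated libraries. Untreated library 1 lay above fibrinogen-treated library 1, and the untreated libraries were spread more widely. The log2 fold change was 0.39 (standard error 0.18, 95% interval -0.033 to 0.82, adjusted p = 0.21, limma; exact permutation test, two-sided, p = 0.2). It was 0.22 without untreated library 2 and 0.21 with edgeR or DESeq2.

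miR-125a-5p showed the smallest difference of the 10 members. It had 3892, 4318 and 3655 TPM in the fibrinogen-treated libraries, against 4201, 3714 and 2817 TPM in the untreated libraries. The ranges overlapped widely and only untreated library 3 lay below all treated ones. The log2 fold change was 0.16 (standard error 0.16, 95% interval -0.21 to 0.53, adjusted p = 0.54, limma; exact permutation test, two-sided, p = 0.5). Without untreated library 3 it was -0.0017 (adjusted p = 0.992, limma).

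miR-351-5p, with the same seed as the miR-125 5p arms, was far rarer. It rose to 20.7, 16.8 and 23.4 TPM in the fibrinogen-treated libraries, against 7.84, 6.39 and 9.83 TPM in the untreated libraries, 1.25 higher on the log2 scale (standard error 0.21, 95% interval 0.75 to 1.75, adjusted p = 0.0262, limma), and passed in 13 of 19 alternatives.

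The 3p arms are the less abundant products of these hairpins, and for all 5 of them every fibrinogen-treated library was the higher, as for 24.4% of all miRNAs tested. miR-99b-3p had 15.2, 17.5 and 17.9 TPM in the fibrinogen-treated libraries, against 10.1, 8.75 and 11.2 TPM in the untreated libraries. Its log2 fold change of 0.70 (standard error 0.17, 95% interval 0.30 to 1.10, adjusted p = 0.0825, limma) was the highest of the 10 members as deposited. With the correction for GC content it was 0.34 (adjusted p = 0.234, limma), below others such as miR-125b-1-3p at 0.59. miR-99a-3p, which shares the seed AAGCUCG with it, had 24.3, 30.7 and 23.9 TPM in the fibrinogen-treated libraries, against 19.6, 15.7 and 22.5 TPM in the untreated libraries. Its log2 fold change was 0.43 (standard error 0.19, 95% interval -0.025 to 0.89, adjusted p = 0.208, limma), and the closest libraries of the groups were little more than 1 TPM apart.

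miR-125a-3p, known in rodent OPCs to slow OL maturation, had 12.2, 10.9 and 15.8 TPM in the fibrinogen-treated libraries, against 8.24, 6.31 and 8.96 TPM in the untreated libraries. These levels rest on 152 to 194 reads in a fibrinogen-treated library and 75 to 134 reads in an untreated library. The log2 fold change was 0.66 (standard error 0.21, 95% interval 0.17 to 1.15) and did not pass (adjusted p = 0.132, limma).

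miR-125b-1-3p, made only from the chromosome 9 precursor, had 48.3, 44.4 and 57.6 TPM in the fibrinogen-treated libraries, against 31.8, 27.4 and 34.5 TPM in the untreated libraries. Its log2 fold change was 0.66 (standard error 0.17, 95% interval 0.27 to 1.06, adjusted p = 0.0836, limma), and DESeq2 called it (0.53, adjusted p = 0.0279). miR-125b-2-3p, made only from the chromosome 16 precursor, had 319, 314 and 350 TPM in the fibrinogen-treated libraries, against 267, 234 and 295 TPM in the untreated libraries. Its log2 fold change was 0.31 (standard error 0.13, 95% interval 0.0033 to 0.61, adjusted p = 0.191, limma), and with median-of-ratios scaling it was 0.17 (adjusted p = 0.406, limma).

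The 3p arms of the 2 miR-125b loci were then set against each other. The ratio of miR-125b-2-3p to miR-125b-1-3p was 6.60, 7.08 and 6.07 in the fibrinogen-treated libraries, against 8.41, 8.54 and 8.55 in the untreated libraries. It lay lower in every fibrinogen-treated library, while the untreated libraries averaged 8.50 ± 0.0784 (SD, n = 3). The difference was -0.37 on the log2 scale (exact permutation test, two-sided, p = 0.1, adjusted p = 0.5 over 5 such ratios). This ratio does not depend on the scaling of a library, but it was not corrected for GC content. The precursor GC was 53.2% for miR-125b-1-3p and 47.9% for miR-125b-2-3p. After the GC correction their log2 fold changes lay closer together, at 0.59 and 0.34, against 0.66 and 0.31 as deposited. The ratio rests on 618 to 708 reads of miR-125b-1-3p in the fibrinogen-treated libraries and 326 to 516 in the untreated libraries. The 5 ratios were chosen after the levels had been seen.

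**Figure D3:**
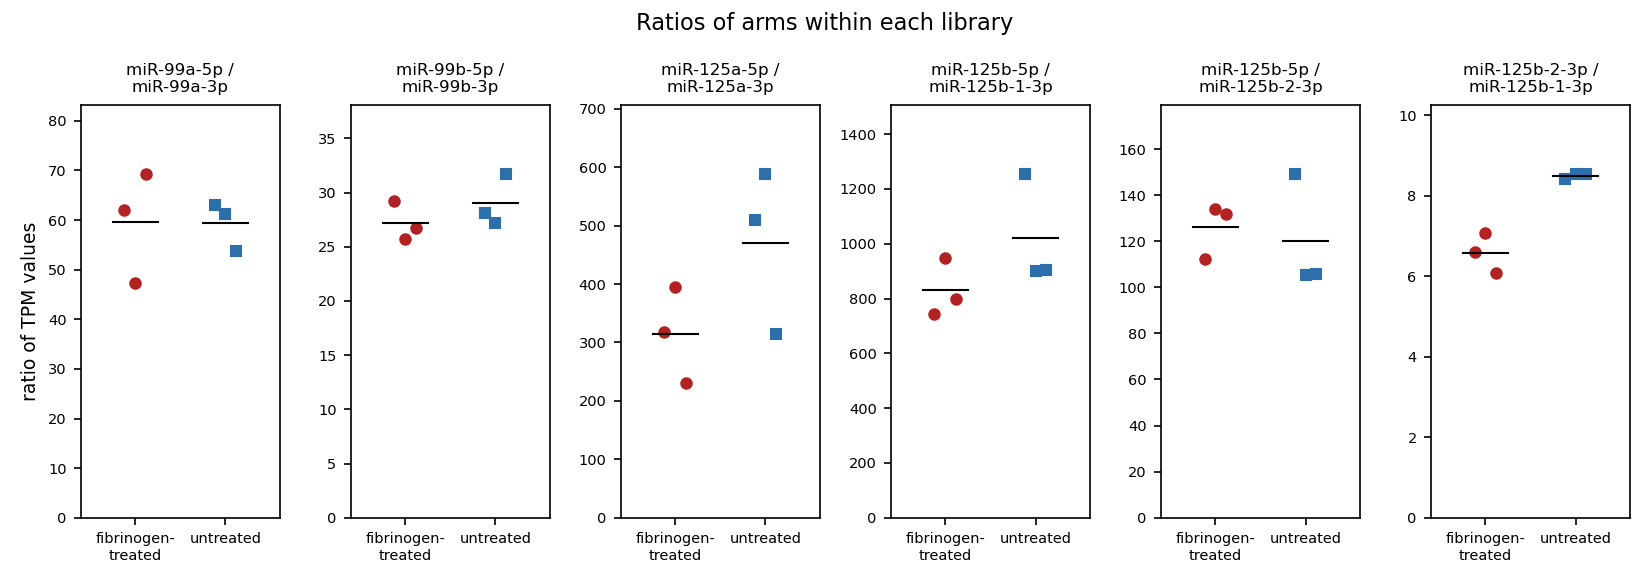
Ratios of TPM values in each library (linear axes from 0, 1 point per library, lines at the means), fibrinogen-treated OPCs left of untreated OPCs, for the 5p over the 3p arm of 5 precursors and for the 3p arms of the 2 miR-125b precursors. The groups overlap for the 5 arm ratios and are apart for the last, at 6.07 to 7.08 against 8.41 to 8.55.

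The balance of the arms within a precursor was compared next, since both arms are cut from 1 hairpin. The 5p arm of Mir99a had 59.6 ± 11.2 times the reads of its 3p arm in fibrinogen-treated and 59.4 ± 4.98 times in untreated OPCs (SD, n = 3 each). For Mir99b these ratios were 27.2 ± 1.84 in fibrinogen-treated and 29.0 ± 2.42 in untreated OPCs. The arm ratios of the miR-99 precursors differed between groups by 0.0099 and -0.037 on the log2 scale (exact permutation tests, two-sided, p = 1 and 0.6), and both signs turned when a single library was left out.

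For Mir125a the ratio of the 5p to the 3p arm was 318, 395 and 231 in the fibrinogen-treated libraries, against 510, 589 and 314 in the untreated libraries. Untreated library 3 lay among the treated ones. The difference was -0.50 on the log2 scale (exact permutation test, two-sided, p = 0.3, adjusted p = 0.75 over 5 precursors). It was -0.30 without fibrinogen-treated library 3, -0.33 without untreated library 2, -0.75 without untreated library 3 and -0.32 with a pseudocount of 5 TPM. The reads of miR-125b-5p were set against the 3p arm of each of its precursors, and the ratio to miR-125b-1-3p averaged 830 ± 106 in fibrinogen-treated and 1021 ± 203 in untreated OPCs, and that to miR-125b-2-3p 126 ± 11.8 and 120 ± 25.1 (SD, n = 3 each). Neither differed beyond the spread of the libraries (exact permutation tests, two-sided, p = 0.3 and 0.8).

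In none of the 3 clusters did a let-7 neighbour pass the test. For each of them but let-7a-2-3p every fibrinogen-treated library was above every untreated library, as for 24.4% of all miRNAs tested. In the compact chromosome 17 cluster the log2 fold changes were 0.66 for miR-99b-5p, 0.26 for let-7e-5p and 0.16 for miR-125a-5p among the 5p arms. The 3p arms of the same precursors lay closer together, at 0.70 for miR-99b-3p, 0.53 for let-7e-3p and 0.66 for miR-125a-3p. The ratio of miR-99b-5p to miR-125a-5p was 0.114, 0.104 and 0.131 in the fibrinogen-treated libraries, against 0.0678, 0.064 and 0.126 in the untreated libraries. The groups overlapped through untreated library 3 (log2 difference 0.50, exact permutation test, two-sided, p = 0.3, adjusted p = 0.5). In the chromosome 16 cluster the fold changes of miR-99a-5p, 0.44, and let-7c-5p, 0.35, lay closer together. The ratio of miR-99a-5p to let-7c-5p was 0.0339 ± 0.00303 in fibrinogen-treated and 0.0316 ± 0.00192 in untreated OPCs (SD, n = 3 each; exact permutation test, two-sided, p = 0.5). In the chromosome 9 cluster the log2 fold changes were 0.40 for miR-100-5p, 0.19 for let-7a-5p, 0.24 for let-7a-2-3p and 0.66 for miR-125b-1-3p. let-7c-5p and let-7a-5p are also made at other loci, so they do not stand for these clusters alone.

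**Figure D4:**
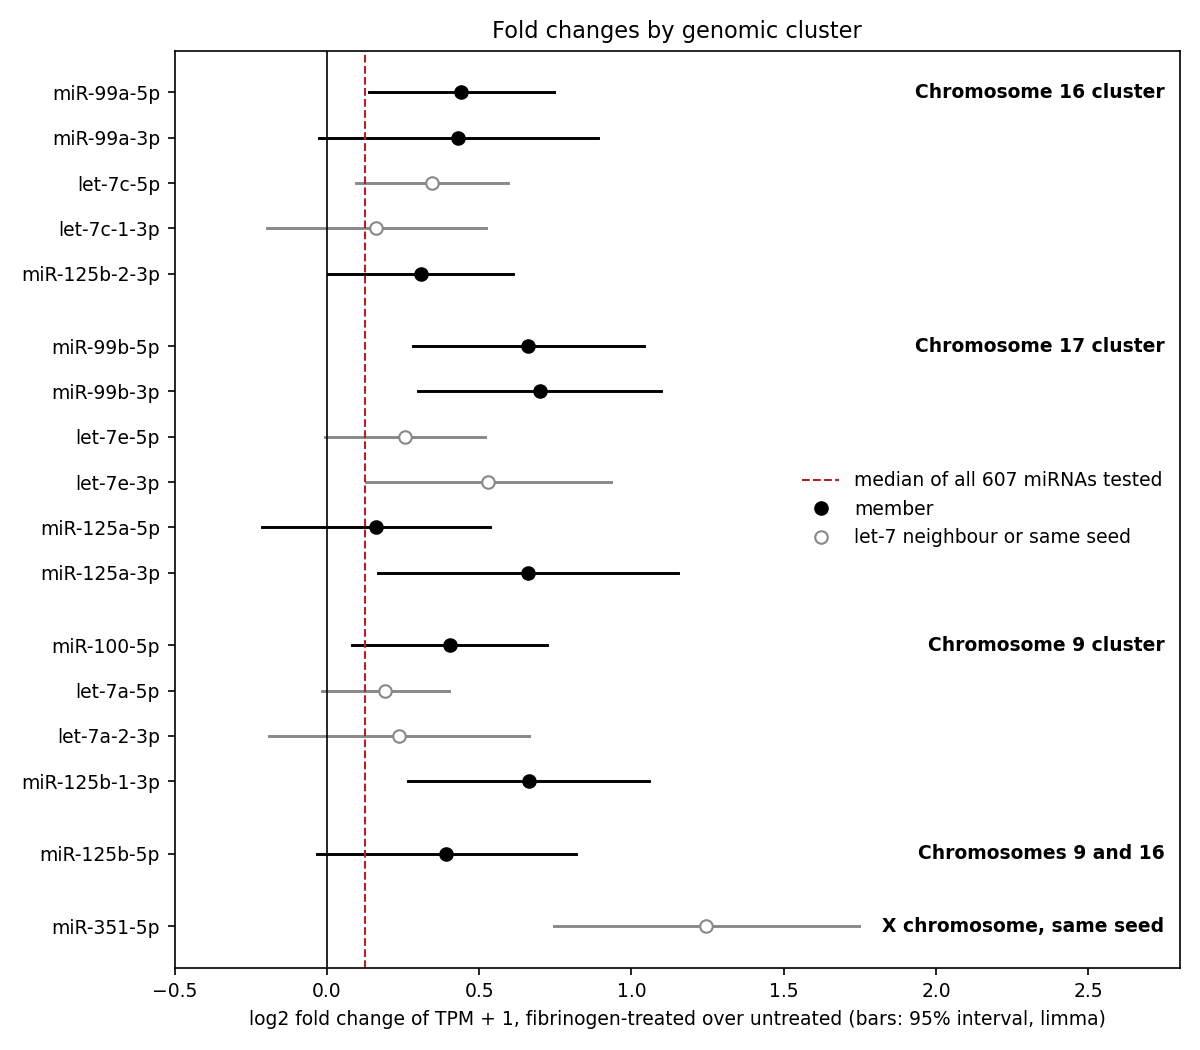
Log2 fold changes (fibrinogen-treated over untreated OPCs, from log2(TPM + 1)) with 95% intervals from limma, grouped by genomic cluster, with members filled and let-7 neighbours and miR-351-5p open. All 10 members lie above the dashed line at the median of all miRNAs, 0.13 (9 with the GC correction), and the interval of miR-351-5p lies apart from 0 by the most.

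The members were alike in their pattern over the libraries to different degrees. Over the 6 libraries, which share the 2 treatments and a scaling to the library total, the log2 levels of miR-99a-5p had a Pearson correlation of 0.97 with miR-125a-3p and miR-100-5p, 0.96 with both miR-125b 3p arms and 0.22 with miR-125a-5p. Outside the families, the known miRNAs most like miR-99a-5p were miR-3535, miR-485-5p and miR-205-5p, with 0.99 or above. Those most like miR-125b-5p were miR-34b-3p, miR-300-3p and miR-34c-3p, with 0.970, 0.964 and 0.956. These are descriptions of 6 points, and they were picked as the highest among all tested miRNAs.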

How the data were processed

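Small RNA of 3 fibrinogen-treated and 3 untreated OPC cultures was sequenced, and the libraries are numbered by mouse. After quality filtering, the authors cut adapters off with cutadapt 1.15, collapsed duplicate reads by in-house code, aligned with Bowtie 1.1.2 (GRCm39 in the paper's methods, mm10 in the labels), counted known and predicted miRNAs with miRDeep2 and deposited values called TPM. These deposited values are RPM: they are whole multiples of 0.0669 to 0.0841 TPM, so whole reads were recovered for 99.7% to 100% of the values above 0 (within 0.1). They sum to 972508 to 986727 in the fibrinogen-treated libraries and to 992890 to 1007870 in the untreated libraries. The total used for scaling was thus not exactly the sum of the listed miRNAs, and these sums do not overlap between the groups. The authors compared groups with edgeR 3.12.1.

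Here log2(TPM + 1) was compared with limma 3.58.1 in R 4.3.3 (eBayes with a trend) for miRNAs that reached 1 TPM in 3 or more libraries, tested on simulated data first, with Benjamini-Hochberg adjustment over 607 miRNAs. Such fold changes understate those of rare miRNAs. In the simulated data, true log2 changes of 1 were called for 91% of the miRNAs that had them, and 9.57% of all calls were false. The changes set there were 1 and 2 on the log2 scale, larger than those of the members, so they do not show how often changes of the members' size would be called. Ratios were compared with exact permutation tests. edgeR 4.0.16 and DESeq2 1.42.0 on recovered reads were alternatives, beside other pseudocounts, minimums and scalings, a GC correction, a replicate block and leaving out libraries. The miRNAs named are all members, miRNAs with the same seed, the let-7 arms of the 3 clusters and the 3 miRNAs most correlated with the most abundant member of each family. Members and lists were chosen with earlier results of these data known. Whether libraries came from separate cultures of separate animals is known only from their numbering by mouse, and p-values measure the spread between these libraries.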

Additional observations from a re-analysis of the deposited data

How the results depend on the processing

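Of 190 results of members under 19 alternatives, 182 kept their direction and their side of an adjusted p of 0.05 (limma where no other tool is named). The number of members called higher was 0, but 2 with DESeq2 and 1 without untreated library 3 (0 to 1 over the fits that leave out 1 library), and the number called lower was 0 throughout. The estimate of miR-125a-5p turned to -0.017 with edgeR, -0.015 with DESeq2, -0.057 with the GC correction, alone or with a replicate block, and -0.0017 without untreated library 3 (-0.0017 to 0.29 over such fits). The difference between the groups in the log2 arm ratio was -0.0076 for Mir99a with a pseudocount of 0.1 TPM. Without 1 library it ran from -0.11 to 0.16. For Mir99b this difference was 0.11 with a pseudocount of 5 TPM and ran from -0.091 to 0.036 without 1 library. For Mir125b-2 it ran from -0.000203 to 0.25 without 1 library. Over all alternatives, the log2 fold change ran from 0.28 to 0.51 for miR-99a-5p and 0.14 to 0.55 for miR-99a-3p. It ran from 0.084 to 0.39 for miR-125b-2-3p and 0.21 to 0.57 for miR-125b-5p. Without 1 library the group difference in the log2 arm ratio of Mir125b-1 ran from -0.37 to -0.11. The cause was not tested. The odd read numbers of miR-125b-5p exclude an exact doubling, but not that part of its reads was counted for each of its 2 precursors. With its reads divided by 2, as planned, its share of the members' reads would be 75.2% in fibrinogen-treated and 73.6% in untreated OPCs. Its share of the reads of the miR-125 5p arms would be 83.8% in fibrinogen-treated and 81.4% in untreated OPCs. Deviations from the group means correlated at 0.0377, 0.233 and 0.124 between libraries with the same number, and at -0.195 to 0.0876 otherwise. The correlations at the same number were positive but low, and they do not decide whether the libraries were paired. The main fit did not take the numbers as pairs. With the replicate number as a block 0 members were called (1.81% of all miRNAs higher), with adjusted p from 0.0768 for miR-99b-5p to 0.512 for miR-125a-5p (limma). Depth limits the 3p arms most, of which miR-125a-3p had 75 to 194 reads in a library.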
